A study of Mus musculus with 27 samples.

Results

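Hearts of mouse embryos at embryonic stage E13.5 (mid-gestation) were set against hearts of unoperated adult mice at 6 and 16 weeks of age. The comparison took 19 of the 27 libraries of the series, chosen by column name in the count table: 7 labelled E13.5, 6 labelled adult_6wk and 6 labelled adult_16wk. The 4 sham-operated and 4 pressure-overloaded hearts were left out. The adult ages were kept as separate groups, and every feature of the table was taken up, with E13.5 contrasted to the mean of the adult ages. All animals were C57BL/6J, an inbred laboratory strain, and the labels name no transgene, deletion, drug or operation in these groups. The titles give E13.5 for all 7 embryos and were followed, although the age field of the labels matches it for 1 embryo only and climbs by 1 in its last figure with each further sample. The labels give the embryos' sex as unknown. Their hearts were taken whole, with atria, valves and outflow tract beside the ventricles. The adults were labelled male and gave ventricular apexes, so region cannot be told apart from stage in any value below. Tissue was frozen and extracted with Trizol, and libraries were made from oligo(dT)-bound RNA as single-end reads without strand information. Each library was 1 heart by the design text, so the spread between replicates is that between animals.

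The mid-gestation heart grows mainly by division of its muscle cells, lives at low oxygen and burns much glucose and lactate. After birth most cardiac muscle cells leave the cell cycle, enlarge, fill with mitochondria and turn to fatty acids, and the contractile proteins and ion channels are exchanged for adult forms. The embryonic heart is also still being shaped: cushions of soft matrix become valves, the epicardium spreads over the surface, and signals such as BMP, Wnt, Notch and FGF proteins pass between the layers.

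Total counts ran from 7543375 to 12646039 per library at E13.5, from 2092270 to 2682955 at 6 weeks and from 2164604 to 2642307 at 16 weeks. The labels give the quality encoding phred33 for the embryos and phred64 for these adults, so depth and encoding went with stage. After random thinning of the embryos' counts to the depth of the adults, the test called 5194 features higher and 4921 lower; of 10409 full-depth calls tested again, 10015 passed with the same sign and 0 with the other. Encoding cannot be told apart from stage. Levels are counts scaled to library size (CPM) with trimmed-mean (TMM) factors. Summed markers of ventricular muscle (Myl2, Myl3, Tnni3, Myh6, Actc1 and Ttn) ran from 20676 to 26937 CPM at E13.5 and from 104780 to 129589 CPM in adults, and all 6 fell. Other markers of the ventricular wall did not follow them. All 3 markers of compact muscle rose (453 to 570 CPM at E13.5 against 168 to 272 CPM in adults). Of 5 trabecular markers 3 rose and 1 fell. All 7 epicardial markers rose (288 to 366 CPM against 12.7 to 28.3 CPM), as did all 4 endocardial markers (512 to 609.6 CPM against 84.4 to 136.9 CPM), while 6 of 6 macrophage markers and 4 of 5 pericyte markers fell. In such bulk tissue, fewer cells of a type and less RNA per cell cannot be told apart. Some libraries stood apart: 6-week replicate 2 had raised adipocyte markers and a raised level of the atrial marker Myl7 (25.6 CPM). Of the other atrial markers, Sln and Bmp10 had no count in any 6-week heart. Nr2f1 in 6-week replicate 2 (4.35 CPM) lay within the range of the other 6-week hearts (0.434 to 4.46 CPM). E13.5 replicate 3 had raised markers of sympathetic nerve, and E13.5 replicate 4 had higher red-cell markers than the other embryos (Hbb-y 33446 CPM). In 4 adult libraries labelled male, Y-linked genes had 3 counts or fewer in sum. Among embryonic libraries, 2 had over 100 Y-linked counts and 5 had 6 or fewer.

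By edgeR's quasi-likelihood test, 83.8% of 12766 features tested differed at an adjusted p under 0.05. Higher at E13.5 were 5630 features (44.1%) and lower were 5065 (39.7%). At least 4-fold higher were 1307 (10.2%), and at least 4-fold lower were 1256 (9.84%). The levels of the 7 embryos and the 12 adults did not overlap for 6984 features (54.7%). A single call or a lack of overlap is therefore near the background, and the size of each change is given. The median log2 fold change was 0.07 over all features tested and 0.06 over coding genes, and the median absolute value was 0.83.

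Adult hearts put their RNA into fewer genes. The 10 most abundant features of each library took 7.71% to 11.3% of all counts at E13.5 (median 8.74%) and 16.1% to 17.8% in adults (median 17.3%). The ranges did not overlap (exact permutation test over the 19 libraries, two-sided p = 1.98e-05, the smallest that 50388 relabellings allow). The adult list was led by Myh6, the fast myosin heavy chain, with 4.86% of counts, a NONCODE transcript named n265358 with 3.0%, the spring protein gene Ttn with 1.77% and Mb, myoglobin, with 1.72%. The embryonic list was led by the embryonic globin Hbb-y with 1.84%, Myh7 with 1.2% and Actc1 with 1.0%, and it held the growth factor Igf2 and its clearance receptor Igf2r. Embryonic counts were spread over 31142 to 32609 features with a count, against 20815 to 22580 in the less deeply sequenced adults.

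The 10 coding genes with the largest surplus of CPM in the embryo, among those whose groups were apart, were Hbb-y, Myh7, Hba-x, Igf2, Fn1, Igf2r, Hba-a1, Grb10, Tubb5 and Igfbp5. The 10 with the largest surplus in the adult were Myh6, Mb, Ttn, Tpm1, Tnnt2, Myl2, Actc1, Slc25a4, Mybpc3 and Tnni3. Fn1, fibronectin, stood at 3210.0 to 4129 CPM at E13.5 (median 3777) and 116 to 190.4 CPM in adults (median 147) (4.64 ± 0.08). Here and below, a value with ± in parentheses is a log2 fold change with its standard error (SE), called at an edgeR adjusted p under 0.05 unless stated. Grb10, an imprinted adaptor that restrains insulin and growth signals, stood at 1843 to 2259 CPM at E13.5 (median 2135) and 175 to 265 CPM in adults (median 200.2) (3.31 ± 0.07). Igfbp5, which binds insulin-like growth factors, had medians of 1805 against 202 CPM (3.09 ± 0.09), and Tubb5, a beta-tubulin of dividing cells, of 1827 against 141 CPM (3.59 ± 0.10). Among genes lower in the embryo, Slc25a4, the ATP carrier of muscle mitochondria, stood at 845 to 1066 CPM at E13.5 (median 1008) and 7112 to 8393 CPM in adults (median 7774) (-2.98 ± 0.06). Tpm1, tropomyosin, had medians of 2028 against 11254 CPM (-2.49 ± 0.06), and Mybpc3, a myosin-binding protein, of 2327 against 9263 CPM (-1.88 ± 0.09).

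**Figure D1:**
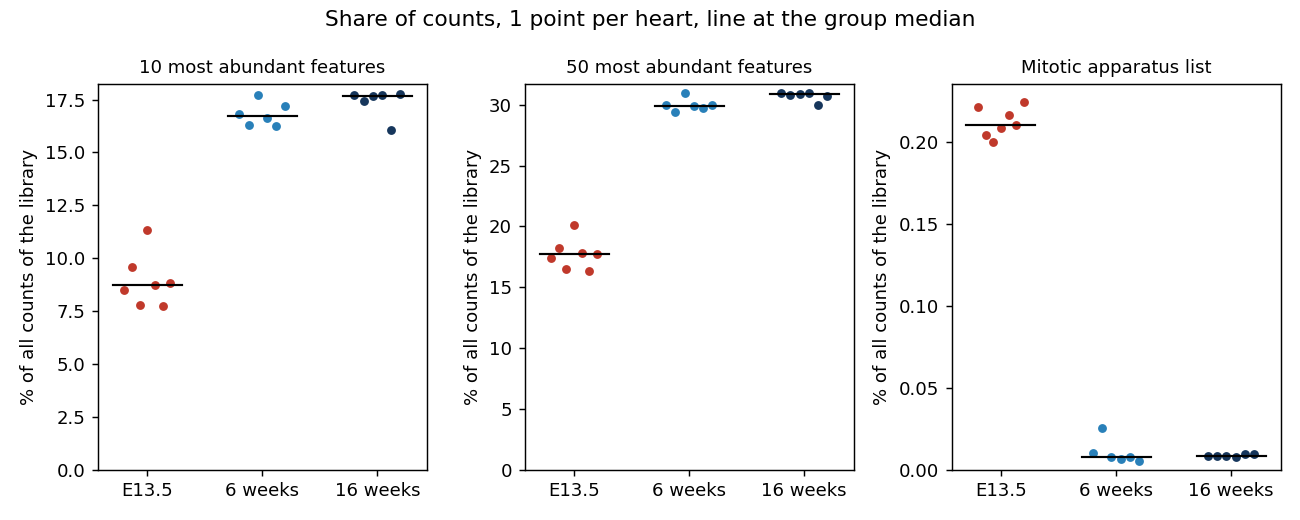
Percent of all counts of a library (vertical axes, starting at 0) taken by its 10 and 50 most abundant features and by the 27 genes of the mitotic apparatus list, with 1 point per heart and a line at each group's median. Adults sit at 16.1% to 17.8% for the 10 most abundant features, above all embryos, and at 0.00526% to 0.0253% for the mitotic list, below all embryos (0.2004% to 0.225%).

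Cell division genes were higher in the embryo. Proteins that license replication origins and build the fork were followed in the DNA replication list. The DNA replication list had 25 of 27 genes tested: 24 rose, 1 fell and 0 did not pass (median log2 fold change 2.65). Mcm6, a subunit of the ring helicase that opens DNA, stood at 96.1 to 116 CPM at E13.5 (median 110.2) and 0.501 to 6.07 CPM in adults (median 1.66). No adult reached any embryo (log2 fold change 5.53 ± 0.15, SE, edgeR adjusted p = 2.99e-24). Mcm5, another subunit of that ring, had medians of 158 against 4.16 CPM (5.10 ± 0.10). Cdc6, which loads the ring onto origins, stood at 19.3 to 29.1 CPM at E13.5 (median 24.7) and 0 to 1.51 CPM in adults (median 0.515) (log2 fold change 5.36 ± 0.21). The exception in this list was Gmnn, geminin, which blocks a further loading of origins: it ran at 9.56 to 16.4 CPM at E13.5 (median 12.3) and 10.1 to 25.4 CPM in adults (median 17.1), overlapping widely, and fell by 0.40 ± 0.14 on the log2 scale.

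Among 27 tested genes of the mitotic apparatus list (all listed), 27 were higher, 0 lower and 0 did not pass, with a median log2 fold change of 6.22, the highest of the 41 lists. Its 8 kinases had a median of 6.87. Bub1, a checkpoint kinase of chromosome attachment, stood at 11.4 to 17.1 CPM at E13.5 (median 15.7) and 0 to 0.561 CPM in adults (median 0). The adults held 1 count in all, in 6-week replicate 6, against 1316 in the embryos, a ratio of 366 (95% Poisson interval 65.6 to 14468). Nuf2, part of the kinetochore that binds spindle fibres, also had 1 adult count, in 6-week replicate 1, and its ratio was 361 (95% Poisson interval 64.7 to 14281). The summed list was highest among adults in 6-week replicate 2, at 0.0253% of counts against at most 0.0104% in the other adults, and lowest among embryos at 0.2004%.

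In the cyclins and CDK inhibitors list, 8 of 12 tested genes rose, 3 fell and 1 did not pass (15 listed; median log2 fold change 1.71). Ccna2, the cyclin of S phase, had levels of 102 to 137 CPM in the embryos, with a median of 124, against 0 to 1.74 CPM in the adults, with a median of 0.705 (7.25 ± 0.17). Ccnb2, a mitotic cyclin, stood at 58.7 to 71.6 CPM at E13.5 (median 68.8) and 0 to 3.04 CPM in adults (median 0.528) (6.28 ± 0.18). Both were near 0 in most adults. Ccng1, a cyclin gene known as a target of p53, went the other way with 60.6 to 95.9 CPM in the embryos, with a median of 80.2, against 415 to 821 CPM in the adults, with a median of 660.5 (-3.03 ± 0.13). Among inhibitors, Cdkn1c, which is imprinted and restrains growth before birth, rose (medians 529.6 against 35.2 CPM, 4.00 ± 0.11), and Cdkn1b had medians of 56.8 against 58.5 CPM and did not pass (edgeR adjusted p = 0.972).

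Promoters of replication and mitosis genes were read to show the letters that sit before these starts. The sequences are from RefSeq (GRCm38.p6) and cover the 160 bases before the start on the gene's own strand. They are shown because these genes were among those with the largest changes and hold E2F or CCAAT letters. Capitals mark E2F letters (TTTCGCGC, TTTGGCGC or TTTCCCGC) and CCAAT letters, on either strand. E2F matches may overlap each other, as GCGCCAAA does with TTTCGCGC in Mcm5, and a mark ending on the other strand reads ATTGG or GCGCGAAA.
Mcm5: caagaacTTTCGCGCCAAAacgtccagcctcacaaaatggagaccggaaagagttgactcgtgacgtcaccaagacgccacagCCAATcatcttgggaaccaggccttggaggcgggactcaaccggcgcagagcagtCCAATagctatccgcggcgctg
Mcm6: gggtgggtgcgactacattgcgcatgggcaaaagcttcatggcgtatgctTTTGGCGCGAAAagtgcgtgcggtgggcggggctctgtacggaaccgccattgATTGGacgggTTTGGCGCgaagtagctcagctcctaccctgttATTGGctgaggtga
Bub1: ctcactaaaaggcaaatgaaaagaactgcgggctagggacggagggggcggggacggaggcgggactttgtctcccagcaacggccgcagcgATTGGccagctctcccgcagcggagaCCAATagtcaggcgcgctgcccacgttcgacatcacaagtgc
Ccnb2: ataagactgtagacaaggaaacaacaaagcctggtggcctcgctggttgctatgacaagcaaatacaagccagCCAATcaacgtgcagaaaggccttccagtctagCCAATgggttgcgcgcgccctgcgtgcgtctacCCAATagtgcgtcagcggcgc
These lie at chr8:75109349-75109508 on the plus strand, chr1:128359706-128359865 on the minus strand, chr2:127831860-127832019 on the minus strand and chr9:70421555-70421714 on the minus strand. Both replication genes hold E2F and CCAAT letters, and Bub1 and Ccnb2 hold CCAAT letters without E2F letters in these windows. These 4 promoters were chosen for holding such letters, so they show nothing about the lists they come from. Over 250 bases before the start, E2F letters were in 8 of 26 promoters of the replication list (30.8%). They were in 1 of 24 promoters of the mitotic list (4.17%), too few to tell from the 1.53% of all 32851 promoters of the table. That table also holds promoters of genes not tested here, so its shares are not a background for tested genes. CCAAT letters were in 57.7% and 75%, against 33.8%. Letters of the cell cycle genes homology region (TTTGAA) were searched too. They were in 15.4% of replication promoters and 16.7% of mitotic ones, against 16.0% of all promoters. Sites of NRF1, estrogen-related receptors, MEF2, GATA and TEAD factors were also searched, and their shares are not reported here. Promoters were matched for 22 of 27 genes in the first list and for 23 of 27 in the second. For the tested coding genes as a whole and for the lists of genes changed at least 4-fold, under 80% of genes had a promoter, so shares in them are not given. A match of letters is a description and not a bound site.

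Pathways that supply dividing cells with building blocks were mostly higher too. Nucleotide and one-carbon synthesis genes numbered 26 tested of 27 listed, with 21 higher, 2 lower, 3 not passing and a median log2 fold change of 1.25. Rrm2, the S-phase subunit of ribonucleotide reductase, stood at 41.9 to 59.1 CPM at E13.5 (median 55.1) and 0 to 1.82 CPM in adults (median 0.499) (6.41 ± 0.17). Mthfd1l, a mitochondrial folate enzyme, had medians of 40.7 against 2.19 CPM (4.12 ± 0.22). The serine makers Phgdh and Psat1 had medians of 11.9 against 0.502 CPM (4.21 ± 0.22) and 41.7 against 3.58 CPM (3.37 ± 0.14). Embryos lay above all adults for these genes, while Dhodh, an enzyme of pyrimidine synthesis, overlapped and fell by 0.30 ± 0.09 on the log2 scale.

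The cholesterol synthesis list had 16 of 20 genes tested: 14 rose, 1 fell and 1 did not pass (median log2 fold change 1.09). Sqle, squalene epoxidase, stood at 28.4 to 40.6 CPM at E13.5 (median 32.9) and 0.869 to 4.23 CPM in adults (median 2.01) (3.94 ± 0.16). Its groups did not overlap. Insig1, which holds the pathway back, passed narrowly (-0.26 ± 0.12, edgeR adjusted p = 0.0486). It did not pass when any of 12 of the 19 libraries was left out, nor against the 6-week adults alone, where its value was 0.11.

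Transcription factors of heart formation went both ways, and most of those that changed were higher in the embryo. Among 44 tested genes of the developmental transcription factors list (46 listed), 25 were higher, 11 lower and 8 did not pass, with a median log2 fold change of 0.67. Hand1, a factor of the left ventricle and outer curvature, stood at 31.4 to 46.8 CPM in the embryos, with a median of 36.1, against 0 in every adult. It was at least 315-fold higher, taken against a floor of 3 counts over the adults. Gata5, known from endocardium and epicardium, had levels of 40.1 to 53.6 CPM in the embryos, with a median of 46, against 0 to 1.74 CPM in the adults, with a median of 0 (6.94 ± 0.23); without 6-week replicate 2, its highest adult, the log2 fold change was 7.55, and without 16-week replicate 4 it was 7.53. By contrast Gata4, a core cardiac factor, stood at 302 to 379 CPM at E13.5 (median 358) and 279.9 to 381 CPM in adults (median 332), and Nkx2-5 at 87.4 to 160.5 CPM at E13.5 (median 107) and 69.9 to 148 CPM in adults (median 126). Their ranges overlapped, with log2 fold changes of 0.05 ± 0.06 (edgeR adjusted p = 0.425) and -0.02 ± 0.12 (0.898). Against sham-operated hearts in place of these adults, Nkx2-5 was called higher at 0.46. Among factors tied to proliferation, Tead2 had medians of 253 against 10.3 CPM (4.69 ± 0.10). The SOX group went both ways: Sox11 had no adult count, while Sox17, an endothelial factor, fell (medians 4.07 against 12.9 CPM, -1.87 ± 0.18).

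Most BMP and TGF-beta ligands were higher in the embryo, and the receptors were mixed. In the BMP and TGF-beta pathway list, 14 of 24 tested genes rose, 7 fell and 3 did not pass (32 listed; median log2 fold change 0.27). By role, 7 of 9 ligands rose and 1 fell, against 5 and 4 of 11 receptors. Bmp7, a ligand expressed in the early myocardium, stood at 229 to 280.1 CPM at E13.5 (median 260.2) and 1.68 to 9.95 CPM in adults (median 4.64) (log2 fold change 5.61 ± 0.13 (SE), edgeR adjusted p = 4.79e-24). Bmp5 had medians of 11.3 against 0.982 CPM (3.56 ± 0.25). Each was higher in every embryo than in any adult. Acvrl1, an endothelial receptor, was lower: 12.2 to 22.7 CPM in the embryos, with a median of 15.6, against 69 to 104 CPM in the adults, with a median of 88.6 (-2.38 ± 0.10).

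Wnt pathway genes numbered 30 tested of 32 listed, with 24 higher, 4 lower, 2 not passing and a median log2 fold change of 1.74. All 6 tested ligands rose, 7 of 12 receptors rose and 3 fell, and 11 of 12 inhibitors and targets rose. Sfrp2, a secreted Wnt antagonist, stood at 83.6 to 196 CPM at E13.5 (median 101) and 1.49 to 8.26 CPM in adults (median 3.75) (4.86 ± 0.25). Ror2, a receptor for Wnt5a, stood at 79.6 to 103 CPM at E13.5 (median 86.3) and 2.01 to 6.52 CPM in adults (median 3.98) (4.47 ± 0.10). Its ligand Wnt5a, known from the outflow tract, had medians of 85.1 against 21 CPM (1.87 ± 0.13), and Wnt4 of 15.2 against 1.34 CPM (3.41 ± 0.21). Groups were apart for these 4 genes. The inhibitor Wif1, which went the other way, ran at 1.95 to 4.78 CPM at E13.5 (median 2.4) and 0.454 to 56.5 CPM in adults (median 4.44); its highest adult, at 56.5 CPM, was 6-week replicate 2, and its log2 fold change moved from -1.73 to -0.96 without that library. Against sham-operated hearts the direction of Wif1 turned, at 0.38.

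The Notch pathway list had 19 of 19 genes tested: 8 rose, 8 fell and 3 did not pass (median log2 fold change -0.10), so the list was split evenly. Hey2, a Notch-family target of compact ventricular muscle, stood at 80 to 106 CPM at E13.5 (median 86.1) and 5.9 to 12.6 CPM in adults (median 10.5) (3.16 ± 0.10). The ligand Jag2 was lower, at 24.1 to 38.8 CPM in the embryos, with a median of 27.5, against 77.8 to 117 CPM in the adults, with a median of 94.9 (-1.69 ± 0.09), and so was the target Heyl (-1.43 ± 0.18). Notch1 had medians of 249.5 against 180.5 CPM, overlapped and rose by 0.37 ± 0.08 on the log2 scale; against sham-operated hearts its value was -0.11.

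Among 23 tested genes of the FGF, PDGF and neuregulin pathways list (28 listed), 10 were higher, 10 lower and 3 did not pass, with a median log2 fold change of -0.12, again evenly split. By role, 3 of 9 ligands rose and 6 fell, while 7 of 14 receptors and targets rose and 4 fell. Fgf16, a ligand made by cardiac muscle, stood at 0 to 0.251 CPM at E13.5 (median 0.121) and 22.4 to 44.3 CPM in adults (median 25.9) (-7.61 ± 0.24). Fgf1 had medians of 20.3 against 314 CPM (-4.01 ± 0.08). Fgfr2, a receptor, stood at 27.4 to 37.3 CPM at E13.5 (median 31.7) and 0 to 2.21 CPM in adults (median 0.512) (5.46 ± 0.22, and 6.09 without 16-week replicate 3). Erbb2, the neuregulin co-receptor, had medians of 221 against 28.9 CPM (3.04 ± 0.08), and Etv4, a target of FGF signals, of 18.8 against 0.516 CPM (4.89 ± 0.20).

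In the VEGF and angiopoietin pathway list, 3 of 15 tested genes rose, 9 fell and 3 did not pass (all listed; median log2 fold change -0.44). Vegfa, the main growth factor of vessels, stood at 93.7 to 130.5 CPM at E13.5 (median 105) and 310.2 to 548 CPM in adults (median 403) (-1.91 ± 0.09), and Vegfb had medians of 126 against 455 CPM (-1.89 ± 0.06). Both were lower in every embryo. Tek, the angiopoietin receptor, rose by 0.45 ± 0.07 on the log2 scale. Summed endothelial markers were 899 to 1050 CPM at E13.5 against 1229.7 to 1514 CPM in adults, with 2 of 6 markers higher and 3 lower, and their part in these values was not tested.

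Semaphorins and axon guidance genes numbered 22 tested of 22 listed, with 15 higher, 6 lower, 1 not passing and a median log2 fold change of 0.81. Robo1, a receptor for Slit proteins, stood at 132 to 139.8 CPM at E13.5 (median 134) and 3.96 to 8.04 CPM in adults (median 6.13) (4.50 ± 0.08), and its ligand Slit2, made in trabecular muscle, had medians of 128 against 8.01 CPM (4.04 ± 0.12). Ephb2, an ephrin receptor, ran from 26.6 to 102 CPM at E13.5, the highest being replicate 3, and from 0 to 5.65 CPM in adults. Sema7a was lower (medians 5.01 against 64.9 CPM, -3.74 ± 0.17).

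**Figure D2:**
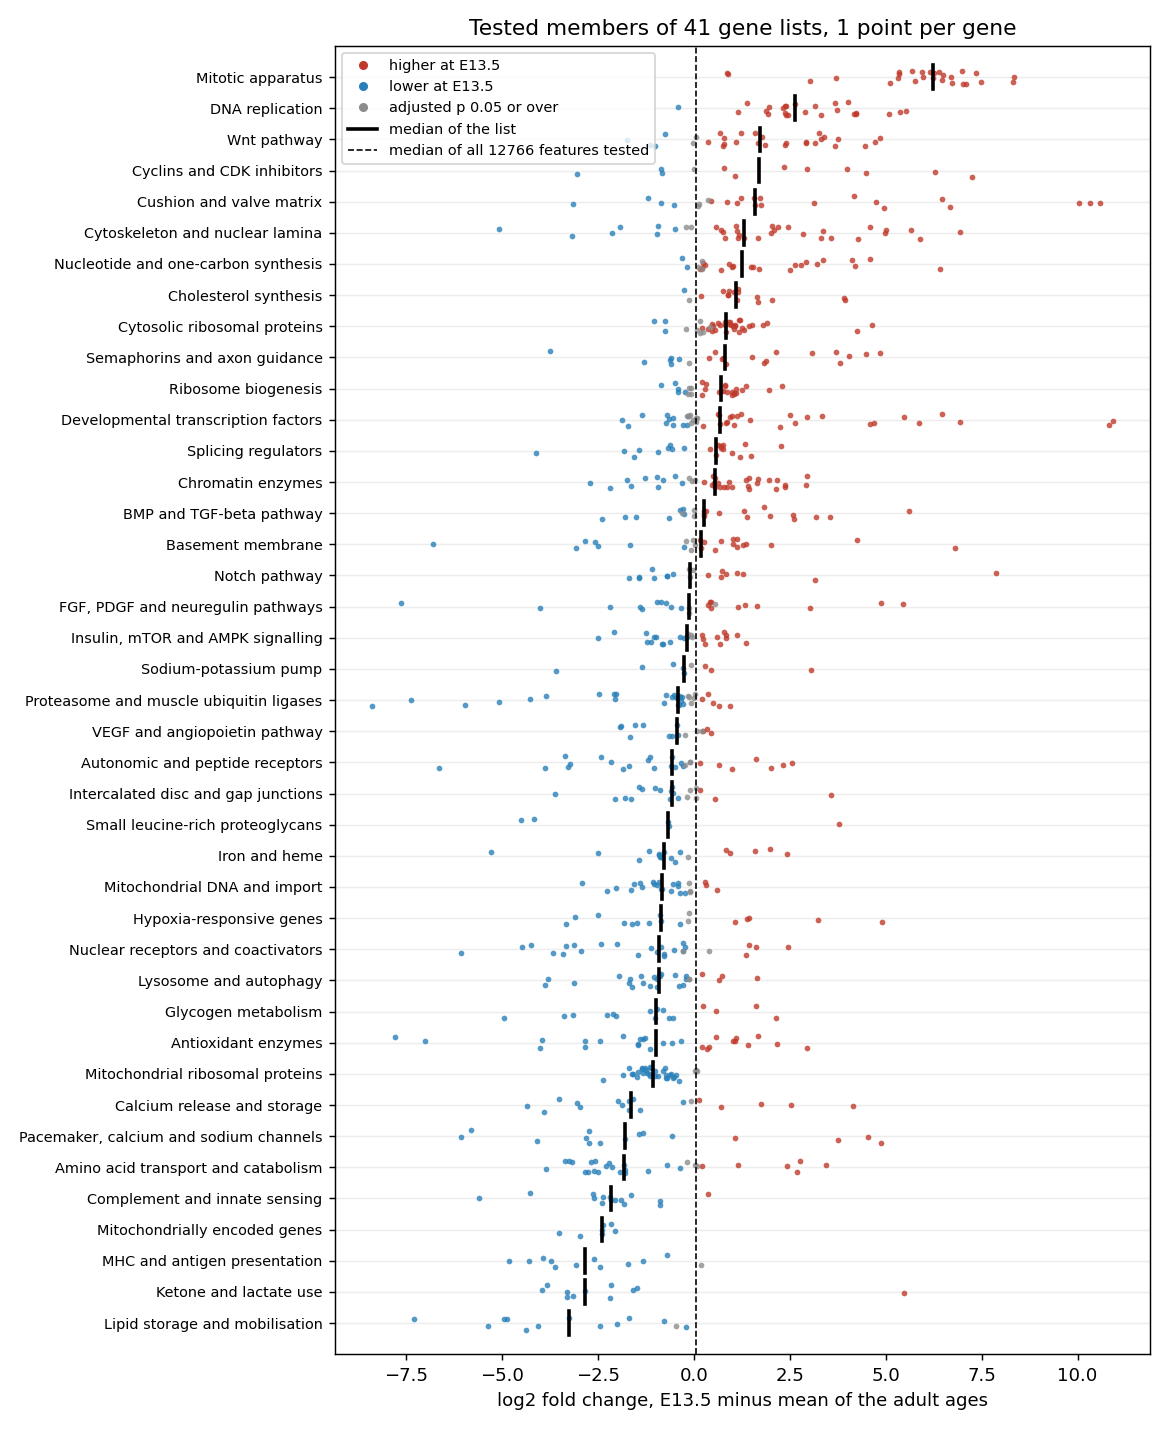
Log2 fold change (E13.5 minus the mean of the adult ages, horizontal axis) of every tested member of the 41 gene lists, 1 point per gene, red where higher, blue where lower and grey where the adjusted p was 0.05 or over. Black bars mark list medians, from -3.26 for lipid storage to 6.22 for the mitotic apparatus, and the dashed line marks the median of all features tested (0.07).

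Many proteins of the heart exist in forms that replace each other, and 28 such pairs could be followed as a ratio within each library. Ratios used counts plus 0.5 per kilobase of bases that no other feature shares. Length and annotated overlap are thus allowed for. Differences between the forms in how well reads map were not corrected, so the level of each ratio is approximate. In 22 pairs the first form was higher and the second lower at E13.5, in 5 both moved the same way, and in 1 a form was not tested. The first form of each pair was named as the embryonic one with earlier results known, so the direction of the ratios is a description. The ratio of slow to adult troponin I, Tnni1 to Tnni3, had a median of 2.7 at E13.5. In adults Tnni1 had 9 counts in all, with 5 of 12 libraries at 0, and the ratio of summed levels was 6.53e-05 (95% Poisson interval 2.99e-05 to 0.000124). That of the atrial to the ventricular regulatory light chain, Myl7 to Myl2, had a median of 1.24 at E13.5. In adults Myl7 was at 0 in 8 of 12 libraries, and its ratio of summed levels was 0.000787, or 6.68e-05 (95% Poisson interval 2.17e-05 to 0.000156, from 5 counts) without 6-week replicate 2. Myl4 to Myl3 went from 0.733 to 0.000231. Whole hearts hold atria and the apex does not, so for these chains region and stage cannot be told apart. Only 29.3% of Myl4's exonic bases lie outside other features. In 6-week replicate 2, Myl7 and Myl4 stood at 25.6 and 21.7 CPM; without that library their log2 fold changes were 12.32 and 8.89, against 9.65 and 8.08 with it. Myh7 to Myh6 went from 1.24 to 0.0511 and smooth-muscle to cardiac actin, Acta2 to Actc1, from 0.194 to 0.0194.

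Metabolic pairs moved by different amounts. The glucose transporters Slc2a1 and Slc2a4 went from a ratio of 8.1 to 0.0308. Among cytochrome oxidase subunits, the liver to heart forms went from 0.682 to 0.0146 for Cox6a1 to Cox6a2 and from 9.37 to 0.0846 for Cox8a to Cox8b. Cox7a2 and Cox7a1 were both lower at E13.5 (-1.53 ± 0.07 and -4.99 ± 0.09), and their ratio went from 2.86 to 0.275. Hexokinases Hk1 and Hk2 were both lower too, at -0.31 ± 0.07 and -2.77 ± 0.09, with a ratio of 2.36 to 0.404. The fatty acid carriers Fabp5 to Fabp3 went from 0.102 to 0.000704, and the acetyl-CoA carboxylases Acaca to Acacb from 0.0853 to 0.00347. Enolases Eno1 to Eno3 went from 0.198 to 0.00398 and lactate dehydrogenases Ldha to Ldhb from 2.06 to 0.296. The smallest shift of the 28 pairs was that of the glycogen phosphorylases, Pygb to Pygm, from 0.931 to 0.493.

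Other pairs included the translation machinery. The elongation factors Eef1a1 to Eef1a2 went from 6.13 to 0.042, and the ribosomal proteins Rpl3 to Rpl3l from 56.9 to 0.00231 (95% Poisson interval 0.00152 to 0.00336, a ratio of summed levels from 27 adult counts of Rpl3). Eef1a1, Rpl3, Slc25a5 and Pgam1 have processed copies in the genome that can take their reads, so their levels are uncertain. The same can hold for other paired forms, whose copies were not assessed here. Tuba1a to Tuba8, alpha-tubulins, went from 508 to 0.093, and the lamins Lmnb1 to Lmna from 2.97 to 0.0449. The embryonic ratios of Tuba1a to Tuba8 and of Rpl3 to Rpl3l rest on 38 and 36 counts of the second form over all embryos. On the log2 scale they ran from 7.87 to 10.67 and from 4.24 to 9.73, so their size is uncertain. Calsequestrins, which hold calcium in the reticulum, went from 2.63 to 0.06 for Casq1 to Casq2. Histone methyltransferases Ezh2 to Ezh1 went from 2.77 to 0.124. For embryonic to adult globins, Hbb-y to Hbb-b1, the median was 18.6 at E13.5. No adult had a count of Hbb-y, so the adult ratio was at most 0.00209, taken at 3 counts over the adults, and both genes were higher in the embryo.

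**Figure D3:**
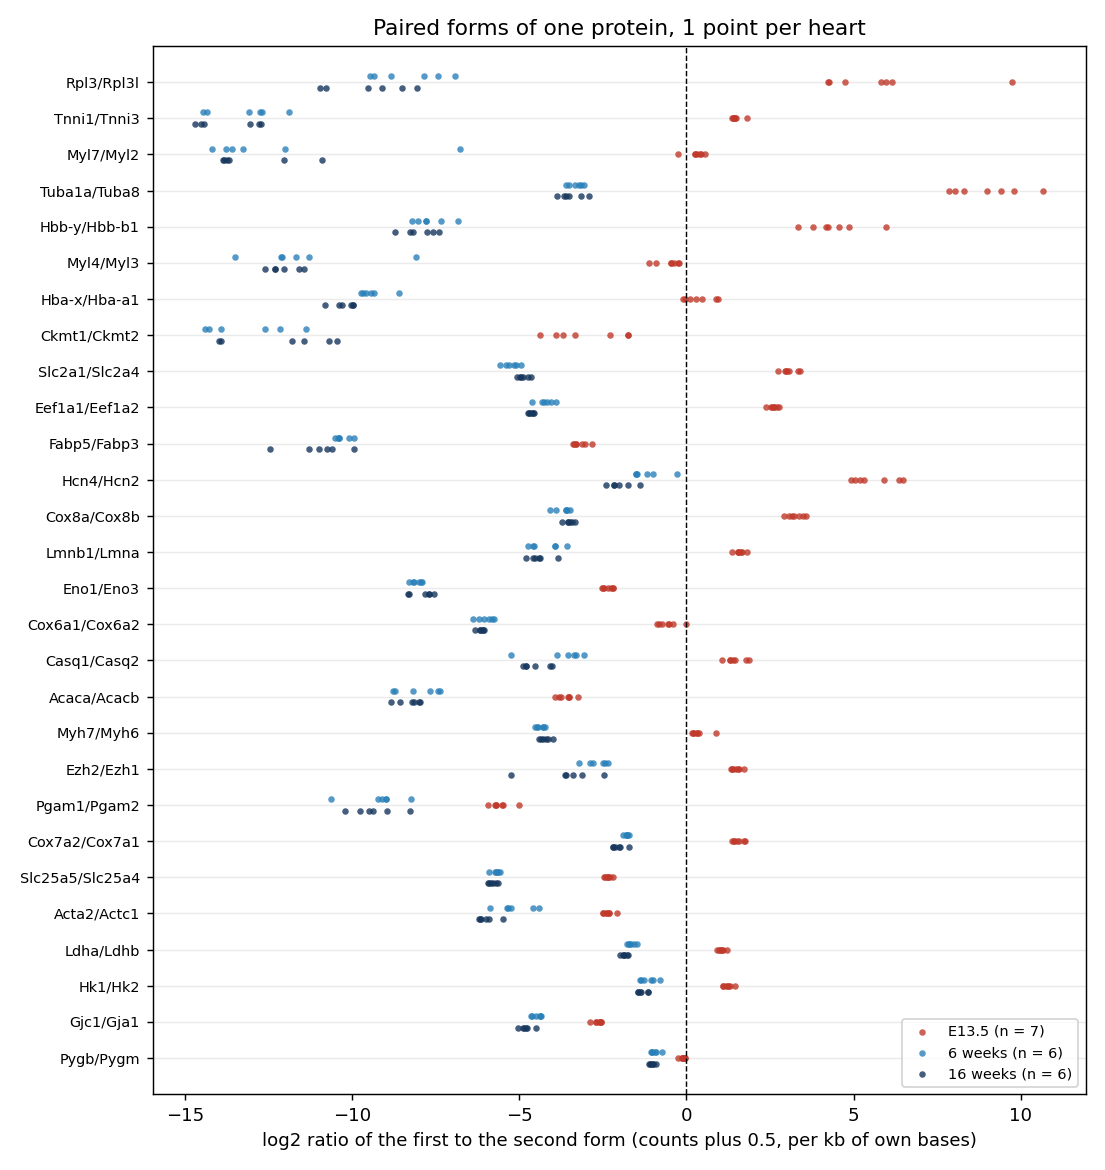
Log2 ratio of the first to the second form (horizontal axis, counts plus 0.5 per kilobase of own bases) for 28 pairs, 1 point per heart, red for E13.5, light blue for 6 weeks and dark blue for 16 weeks. The dashed line at 0 marks equal levels; pairs are ordered by the size of the plotted shift, from Pygb/Pygm (medians 0.931 against 0.493 as a ratio) to Rpl3/Rpl3l. Adult points of Tnni1, Myl7, Ckmt1, Rpl3, Hbb-y and Hba-x rest on few or no counts of that form, so the 0.5 added sets much of their position. The same holds for E13.5 points of Tuba1a/Tuba8 and Rpl3/Rpl3l, which rest on few counts of Tuba8 and Rpl3l.

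Channels for the action potential were mostly lower in the embryo, with a few marked exceptions. The pacemaker, calcium and sodium channels list had 15 of 17 genes tested: 4 rose, 11 fell and 0 did not pass (median log2 fold change -1.78). Cacna1c, the pore of the L-type calcium channel, stood at 223 to 291 CPM at E13.5 (median 264) and 681 to 1109.5 CPM in adults (median 890.2) (-1.78 ± 0.07). Scn4a, the skeletal sodium channel, stood at 1.82 to 3.72 CPM at E13.5 (median 2.52) and 113 to 181 CPM in adults (median 137) (-5.80 ± 0.12). For both, every embryo lay below every adult. Cacna2d2, an accessory calcium channel subunit, was the reverse at 170.2 to 243 CPM at E13.5 (median 198) and 3.36 to 11.3 CPM in adults (median 6.88) (log2 fold change 4.87 ± 0.12 (SE), edgeR adjusted p = 2.06e-24). The calcium channel pores Cacna1h, a T-type, and Cacna1d, an L-type of pacemaker cells, had medians of 293 against 7.86 CPM (4.55 ± 0.30) and 32.3 against 2.01 CPM (3.75 ± 0.18). Among pacemaker channels, Hcn2 fell (0.701 to 1.38 CPM in the embryos, with a median of 1.01, against 48.5 to 92.7 CPM in the adults, with a median of 73.5, -6.07 ± 0.15) and Hcn4 rose by 1.07 ± 0.17 on the log2 scale with overlap. The per-kilobase ratio of Hcn4 to Hcn2 went from 39.9 to 0.352. Whole hearts hold the sinus node; 2 of 5 tested conduction markers were higher and 3 lower, and their sums overlapped.

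Among 18 tested genes of the calcium release and storage list (19 listed), 5 were higher, 12 lower and 1 did not pass, with a median log2 fold change of -1.63. Ryr2, the cardiac calcium release channel, stood at 480.4 to 685 CPM at E13.5 (median 607) and 3965 to 6551 CPM in adults (median 4716) (-3.03 ± 0.10), whereas Ryr3, a form of other tissues, stood at 32.8 to 48.1 CPM at E13.5 (median 37) and 0.553 to 4.34 CPM in adults (median 1.92) (4.15 ± 0.16). The groups were apart for both, in opposite directions. S100a1, which sensitises release, had medians of 56.5 against 1129 CPM (-4.33 ± 0.08), and Hrc, a calcium buffer of the reticulum, of 169 against 2612 CPM (-3.91 ± 0.07). Atp2a2, the calcium pump, has no bases of its own in the annotation and was not measured.

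In the intercalated disc and gap junctions list, 3 of 20 tested genes rose, 13 fell and 4 did not pass (all listed; median log2 fold change -0.57). Nrap, which anchors thin filaments at the disc, stood at 157 to 194 CPM at E13.5 (median 176) and 1464 to 2955 CPM in adults (median 2170.0) (-3.62 ± 0.10). Dsp, desmoplakin, had medians of 1184 against 4783 CPM (-2.04 ± 0.06), and Gja1, the main ventricular connexin, of 345 against 939 CPM (-1.43 ± 0.07). Gja5, the connexin of trabeculae, atria and conduction fibres, was higher: 251 to 307 CPM in the embryos, with a median of 279.7, against 16.9 to 31.7 CPM in the adults, with a median of 22.4 (3.57 ± 0.09). Sodium-potassium pump genes numbered 9 tested of 9 listed, with 3 higher, 5 lower, 1 not passing and a median log2 fold change of -0.24.

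The autonomic and peptide receptors list had 27 of 33 genes tested: 7 rose, 17 fell and 3 did not pass (median log2 fold change -0.57). Of 7 adrenergic genes none was higher and 5 were lower. Adra1a, an alpha receptor for noradrenaline, stood at 0 to 0.459 CPM at E13.5 (median 0.14) and 7.85 to 29.6 CPM in adults (median 22.2) (-6.64 ± 0.31), Adrb1 had medians of 4.34 against 25.8 CPM (-2.41 ± 0.15) and Chrm2, the vagal receptor, of 11.4 against 111 CPM (-3.23 ± 0.10). No embryo reached any adult in these genes. Igf2r, which clears Igf2, stood at 3355 to 4353 CPM at E13.5 (median 3976) and 567 to 737 CPM in adults (median 665) (2.55 ± 0.06). The growth receptors for insulin-like signals went opposite ways: Igf1r had medians of 235 against 79 CPM (1.63 ± 0.06) and Insr, the insulin receptor, of 121 against 267 CPM (-1.20 ± 0.06).

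Nuclear receptors that tune metabolism were mostly lower before birth. Among 26 tested genes of the nuclear receptors and coactivators list (28 listed), 4 were higher, 20 lower and 2 did not pass, with a median log2 fold change of -0.89. Of 14 metabolic members 13 fell, and Pprc1, a coactivator of the PGC-1 family, rose (1.37 ± 0.08). Rxrg, a partner receptor of many others, stood at 1.58 to 2.39 CPM at E13.5 (median 1.75) and 102 to 141 CPM in adults (median 128) (-6.05 ± 0.10). Ppara, which drives fatty acid genes, had medians of 5.79 against 109.5 CPM (-4.24 ± 0.11), and Esrra of 53.9 against 222 CPM (-2.01 ± 0.10, with 38.2% of its exonic bases its own). The thyroid hormone receptors differed in size of change: Thrb had medians of 1.96 against 46.9 CPM (-4.47 ± 0.17), and Thra had medians of 136 against 207 CPM (-0.51 ± 0.07). Nr2f1, an atrial factor, was higher (2.45 ± 0.20).

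In the lipid storage and mobilisation list, 0 of 13 tested genes rose, 12 fell and 1 did not pass (17 listed; median log2 fold change -3.26), the lowest of the 41 lists. Plin4, which coats fat droplets, stood at 1.97 to 3.42 CPM at E13.5 (median 2.55) and 259 to 679 CPM in adults (median 388) (-7.27 ± 0.21). Lpl, which frees fatty acids from blood lipids, stood at 93.8 to 135 CPM at E13.5 (median 119) and 3064 to 4295 CPM in adults (median 3474) (-4.87 ± 0.08), and Dgat2, which makes triglycerides, at 5.75 to 7.84 CPM at E13.5 (median 6.8) and 211 to 434 CPM in adults (median 270.4) (-5.35 ± 0.13). No value of these genes was shared between stages. Adipocyte markers summed to at most 0.519 CPM in embryos and 2.0 CPM in 16-week adults; at 6 weeks the median was 1.36 CPM and replicate 2 had 18.7 CPM.

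Ketone and lactate use genes numbered 11 tested of 12 listed, with 1 higher, 10 lower, 0 not passing and a median log2 fold change of -2.84. The exception was Slc16a3, a monocarboxylate carrier that exports lactate: 150.3 to 228 CPM in the embryos, with a median of 189.8, against 2.65 to 5.76 CPM in the adults, with a median of 4.06 (log2 fold change 5.48 ± 0.11 (SE), edgeR adjusted p = 4.64e-27). Pdk4, which shuts pyruvate out of oxidation, stood at 26.1 to 36 CPM at E13.5 (median 32.2) and 173 to 854 CPM in adults (median 509) (-3.94 ± 0.34), and Brp44l, a subunit of the mitochondrial pyruvate carrier, had medians of 6.71 against 99.4 CPM (-3.83 ± 0.11). The glycogen metabolism list had 16 of 16 genes tested: 4 rose, 12 fell and 0 did not pass (median log2 fold change -0.97). Phkg1, a phosphorylase kinase subunit of muscle, had medians of 1.26 against 46.2 CPM (-4.95 ± 0.20), and Stbd1, which binds glycogen to membranes, was higher (51.9 against 13.9 CPM, 2.14 ± 0.13).

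Among 29 tested genes of the amino acid transport and catabolism list (30 listed), 6 were higher, 20 lower and 3 did not pass, with a median log2 fold change of -1.81. Of 19 catabolic enzymes 17 fell and 1 rose. That 1 was Bcat1, the cytosolic transaminase of branched-chain amino acids (medians 8.67 against 1.67 CPM, 2.70 ± 0.23); its mitochondrial partner Bcat2 fell (medians 35.8 against 128 CPM, -1.78 ± 0.07). Got1, an aspartate transaminase of the malate shuttle, stood at 97.5 to 122 CPM at E13.5 (median 114) and 897 to 1333 CPM in adults (median 1145) (-3.34 ± 0.07). Slc38a4, an imprinted amino acid carrier, rose (medians 161 against 13.6 CPM, 3.45 ± 0.09).

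Genes of the mitochondrion, from its ribosome and import to its own genome, were mostly lower as well. In the mitochondrial ribosomal proteins list, 0 of 34 tested genes rose, 31 fell and 3 did not pass (35 listed; median log2 fold change -1.06). Mrps23 had medians of 35.9 against 189 CPM (-2.37 ± 0.10). Mitochondrial DNA and import genes numbered 25 tested of 30 listed, with 3 higher, 19 lower, 3 not passing and a median log2 fold change of -0.82. Mfn2, which fuses mitochondria, stood at 253 to 299 CPM at E13.5 (median 280.0) and 975 to 2087 CPM in adults (median 1153) (-2.27 ± 0.12), while Tfam, which packs mitochondrial DNA, had medians of 12.1 against 12.6 CPM and did not pass (edgeR adjusted p = 0.434, 26.3% of bases its own). The mitochondrially encoded genes list had 7 of 13 genes tested: 0 rose, 7 fell and 0 did not pass (median log2 fold change -2.39); these varied much between adults, from 181 to 2047 CPM for mt-Nd2, and only polyadenylated RNA was taken up.

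Genes that sense oxygen differed in sign within their family. Among 17 tested genes of the hypoxia-responsive genes list (18 listed), 5 were higher, 10 lower and 2 did not pass, with a median log2 fold change of -0.84. Hif3a stood at 234 to 269 CPM at E13.5 (median 254) and 4.97 to 18.3 CPM in adults (median 6.8) (log2 fold change 4.91 ± 0.13 (SE), edgeR adjusted p = 1.28e-21), and Hif1a had medians of 109.9 against 42.7 CPM (1.44 ± 0.09). Epas1, which encodes HIF-2 alpha and is strong in endothelium, was the reverse at 58.3 to 73.7 CPM at E13.5 (median 70.5) and 601 to 823 CPM in adults (median 647) (-3.31 ± 0.07). The embryos were apart from the adults for all 3. Egln3, a hydroxylase that marks HIF proteins, had medians of 13.9 against 104 CPM (-3.08 ± 0.21).

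In the antioxidant enzymes list, 11 of 28 tested genes rose, 17 fell and 0 did not pass (29 listed; median log2 fold change -0.97). Ucp3, an uncoupling protein of muscle mitochondria, stood at 0.0885 to 0.653 CPM at E13.5 (median 0.421) and 52.5 to 137 CPM in adults (median 74.7) (-7.77 ± 0.32), and Sod3, the extracellular superoxide dismutase, had medians of 0.631 against 81.4 CPM (-6.99 ± 0.19). Hmox1, which breaks down heme, was higher at 58.5 to 185 CPM in the embryos, with a median of 83, against 6.17 to 25.9 CPM in the adults, with a median of 11.5 (2.96 ± 0.26), and its highest embryo was replicate 4. Iron and heme genes numbered 19 tested of 20 listed, with 5 higher, 13 lower, 1 not passing and a median log2 fold change of -0.77. Hfe2, hemojuvelin, stood at 5.68 to 10.9 CPM at E13.5 (median 8.23) and 288 to 347 CPM in adults (median 319) (-5.27 ± 0.09), and Ftl1, a ferritin chain, was higher (517 against 100.3 CPM, 2.44 ± 0.08), again highest in replicate 4. All 5 tested erythroid markers rose, from 8561 to 35282 CPM summed at E13.5 against 31.3 to 92.7 CPM in adults, and their part in these 2 genes was not tested.

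Translation genes were mostly higher, by small amounts. The cytosolic ribosomal proteins list had 39 of 51 genes tested: 30 rose, 3 fell and 6 did not pass (median log2 fold change 0.85). Many have near-identical copies, so single members are uncertain, and 12 of 51 listed genes were not tested. Among 29 tested genes of the ribosome biogenesis list (32 listed), 20 were higher, 5 lower and 4 did not pass, with a median log2 fold change of 0.70. Npm1, nucleophosmin, stood at 73.6 to 135 CPM at E13.5 (median 109) and 15.8 to 28.2 CPM in adults (median 22.1) (2.29 ± 0.12). Nop58, a protein of the nucleolar particles that guide RNA methylation, had medians of 42.1 against 11.7 CPM (1.96 ± 0.11). Both had no overlap.

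Matrix genes went both ways. In the cushion and valve matrix list, 17 of 24 tested genes rose, 4 fell and 3 did not pass (26 listed; median log2 fold change 1.59). Hapln1, which links hyaluronan to proteoglycans in the cushions, stood at 25.4 to 39.8 CPM in the embryos, with a median of 33.1, against 0 in every adult, at least 266-fold higher. Col2a1, a collagen of cartilage and valves, had 3 adult counts against 15554 embryonic ones, a ratio of 1442 (95% Poisson interval 493 to 6993); without 16-week replicate 2 its fitted log2 fold change went from 10.33 to 11.52. Vcan, versican, had medians of 471 against 25.5 CPM (4.17 ± 0.15), and Fbn2, a fibrillin of growing tissue, of 797 against 9.04 CPM (6.46 ± 0.14). These proteins are known from valves and great vessels, so region cannot be told apart from stage. Summed cartilage markers, Col2a1 among them, were 172 to 264 CPM at E13.5 and 0 to 3.01 CPM in adults. Tnxb, a tenascin, was lower (43.1 against 381 CPM, -3.13 ± 0.09). Small leucine-rich proteoglycan genes numbered 5 tested of 9 listed, with 1 higher, 4 lower, 0 not passing and a median log2 fold change of -0.68. Prelp had medians of 8.91 against 202 CPM (-4.50 ± 0.12), and Fmod rose by 3.79 ± 0.61 on the log2 scale, and by 5.83 without 6-week replicate 2, where it stood at 53.9 CPM.

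The basement membrane list had 25 of 26 genes tested: 14 rose, 7 fell and 4 did not pass (median log2 fold change 0.19). The laminins changed in opposite ways: Lama1, the alpha chain of early embryos, had 3 adult counts against 1320 embryonic ones, a ratio of 122 (95% Poisson interval 41.8 to 594), whereas Lamb2 had medians of 281 against 1658 CPM (-2.50 ± 0.09). Without 6-week replicate 4 or 16-week replicate 1 the fitted log2 fold change of Lama1 went from 6.81 to 8.38 or 7.99. Itga7, the laminin-binding integrin of mature muscle, stood at 2.85 to 6.37 CPM at E13.5 (median 4.56) and 382 to 559 CPM in adults (median 471) (log2 fold change -6.78 ± 0.12 (SE), edgeR adjusted p = 1.74e-27). Col18a1, the source of endostatin, was higher at 652 to 817 CPM in the embryos, with a median of 676, against 17.8 to 47.5 CPM in the adults, with a median of 38.1 (4.24 ± 0.10), as was Agrn, agrin (medians 683 against 176 CPM, 2.01 ± 0.06). Stages were apart for each of these genes.

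Immune genes were low in the embryo. Among 12 tested genes of the MHC and antigen presentation list (17 listed), 0 were higher, 11 lower and 1 did not pass, with a median log2 fold change of -2.84. Cd74, the invariant chain of class II, stood at 0.735 to 9.19 CPM at E13.5 (median 1.4) and 59 to 172 CPM in adults (median 97.3) (-4.82 ± 0.42), and Tap2, a peptide transporter of class I, at 1.68 to 3.76 CPM at E13.5 (median 2.74) and 35.7 to 69.8 CPM in adults (median 52.3) (-4.28 ± 0.14). B2m, the shared light chain, had medians of 40.6 against 98 CPM (-1.33 ± 0.18). In the complement and innate sensing list, 1 of 15 tested genes rose, 14 fell and 0 did not pass (23 listed; median log2 fold change -2.15). C1s, a protease that starts complement, had medians of 0.184 against 20 CPM (-5.60 ± 0.25). Summed macrophage markers were 99.3 to 141.7 CPM against 163 to 296 CPM, and their part in these values was not tested.

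Protein turnover genes were mostly lower. Lysosome and autophagy genes numbered 27 tested of 32 listed, with 4 higher, 21 lower, 2 not passing and a median log2 fold change of -0.90. By role, 8 of 12 lysosome genes fell and 3 rose (median -0.23), while 13 of 15 autophagy genes fell and 1 rose (median -1.13). Pink1, which tags damaged mitochondria, stood at 77.5 to 104 CPM at E13.5 (median 84.7) and 956 to 1439 CPM in adults (median 1325) (-3.86 ± 0.08). The proteasome and muscle ubiquitin ligases list had 34 of 35 genes tested: 5 rose, 24 fell and 5 did not pass (median log2 fold change -0.40). The 23 tested proteasome genes had log2 fold changes of -0.76 to 0.66, and 14 of them fell, whereas 10 of 11 muscle ligases fell with a median of -3.85. Asb15, a muscle ligase subunit, stood at 0 to 0.919 CPM at E13.5 (median 0.418) and 101 to 161 CPM in adults (median 134) (-8.37 ± 0.19). The exception was Trim55, a titin-bound ligase, at 238 to 337 CPM at E13.5 (median 279) and 121 to 201 CPM in adults (median 143) (0.94 ± 0.07). Among 27 tested genes of the insulin, mTOR and AMPK signalling list (28 listed), 10 were higher, 14 lower and 3 did not pass, with a median log2 fold change of -0.18. Pik3r1, a regulatory subunit of PI3 kinase, had medians of 62.6 against 272 CPM (-2.08 ± 0.15).

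In the chromatin enzymes list, 26 of 39 tested genes rose, 10 fell and 3 did not pass (41 listed; median log2 fold change 0.56). All 6 tested DNA methylation genes rose, led by the maintenance methylase Dnmt1 at 322 to 398 CPM at E13.5 (median 358) and 34.7 to 58.6 CPM in adults (median 45.7) (2.96 ± 0.07). Ezh2, the Polycomb methylase, had medians of 41.2 against 5.25 CPM (2.93 ± 0.13), while Cbx7, a Polycomb reader, fell (5.08 against 39.4 CPM, -2.69 ± 0.16). Among remodellers, Smarcc1 rose (234 against 53.4 CPM, 2.14 ± 0.06) and Smarca2 fell (84.1 against 172 CPM, -0.96 ± 0.09). Splicing regulator genes numbered 21 tested of 26 listed, with 12 higher, 9 lower, 0 not passing and a median log2 fold change of 0.59. Ptbp1, which holds back muscle exons, stood at 251 to 327 CPM at E13.5 (median 279) and 45.9 to 78.5 CPM in adults (median 60.3) (2.26 ± 0.08), and A2bp1, which promotes them, had medians of 3.43 against 59.8 CPM (-4.12 ± 0.11, 47.9% of bases its own).

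The cytoskeleton and nuclear lamina list had 35 of 36 genes tested: 26 rose, 7 fell and 2 did not pass (median log2 fold change 1.31). Of 14 tubulins 12 rose, and Tuba4a fell (28.9 to 53 CPM in the embryos, with a median of 31.6, against 803 to 2071 CPM in the adults, with a median of 1093, -5.07 ± 0.20). Marcksl1, an actin-binding protein of migrating cells, stood at 209.6 to 235 CPM at E13.5 (median 226) and 1.5 to 6.53 CPM in adults (median 4.06) (5.90 ± 0.11), and Krt18, a keratin of the epicardium and other epithelia, had medians of 22.3 against 0.752 CPM (5.67 ± 0.38). The groups did not overlap for these 3 genes.

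**Figure D4:**
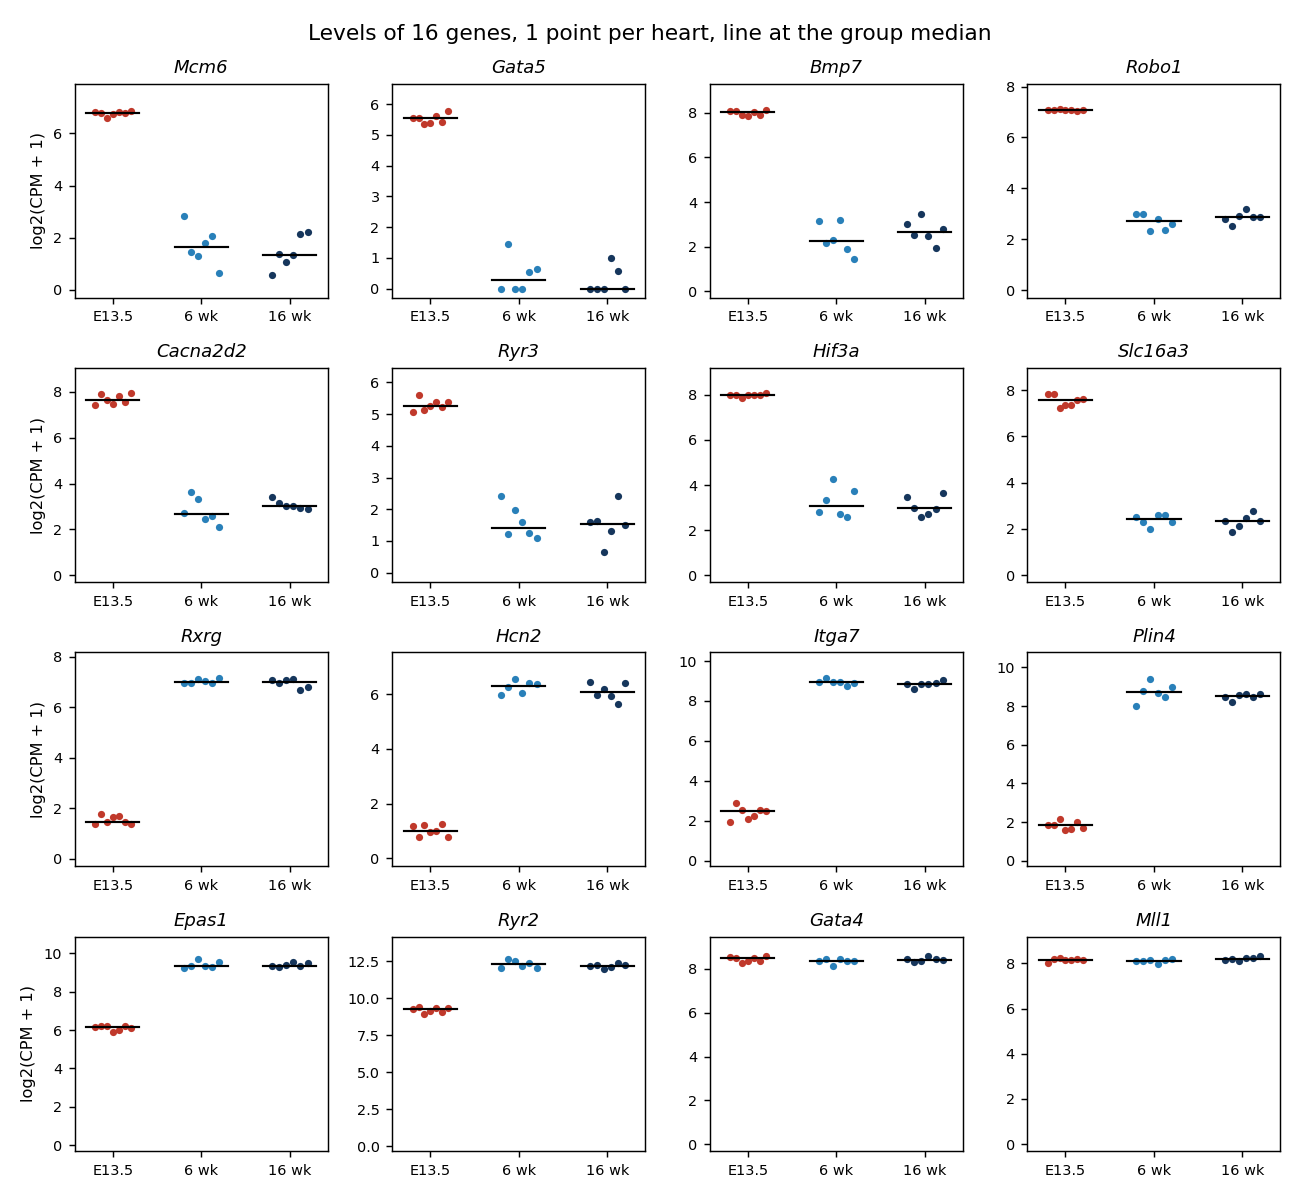
Levels of 16 genes as log2(CPM + 1) (vertical axes, 1 CPM added) in each heart, by stage, with a line at each group median. Embryos lie above all adults for the first 8 genes, below them for the next 6 and among them for Gata4 (302 to 379 CPM against 279.9 to 381 CPM) and Mll1.

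Genes at like levels were picked by how near to 0 their log2 fold change stayed, so their likeness follows from the choice. Among the coding genes of at least 50 CPM whose 95% interval stayed nearest to 0 were Mll1, Nucb1, Pdcd6ip, Sec16a and Xpo5. Mll1, a histone methylase, stood at 254 to 306 CPM at E13.5 (median 286) and 254 to 320.5 CPM in adults (median 284), with an interval of -0.10 to 0.10 for the log2 fold change. Nucb1, a calcium-binding protein of the Golgi, stood at 212 to 227 CPM at E13.5 (median 216) and 187 to 256 CPM in adults (median 218). Their likeness depends on the scaling: upper-quartile scaling moved the median of all features up by 0.12, and Mll1 was then called higher at 0.12 and Nucb1 at 0.12. Against sham-operated hearts Pdcd6ip was called lower, at -0.17.

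The stress genes varied between adults. Nppb, a natriuretic peptide, ran at 32.9 to 57.9 CPM at E13.5 (median 52.7) and 4.35 to 298 CPM in adults (median 130.2), and Acta1, skeletal actin, at 224 to 289 CPM at E13.5 (median 263) and 5.21 to 652 CPM in adults (median 229). The adults' lowest values, in 6-week replicate 2, lay below every embryo and their highest above, so the stages overlapped. The median of Acta1 was higher in the embryos than in these adults, whereas its log2 fold change against sham-operated hearts was -0.76.

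Noncoding transcripts of the NONCODE collection that overlap no coding gene were led by n265358, which lies at chr11:108872993-108873432 (mm9, minus strand) as a single exon of 440 bases. It stood at 4202 to 17769 CPM at E13.5 (median 5856) and 21749.8 to 45966 CPM in adults (median 37437) and fell by 2.24 ± 0.27 on the log2 scale, with E13.5 replicate 2 highest among embryos. Higher in the embryo was n290762, with medians of 319 against 18.5 CPM (4.17 ± 0.08), with no overlap. The files give no function for either.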

How the data were processed

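Polyadenylated RNA was sequenced from whole hearts of 7 embryos and from ventricular apexes of 12 unoperated adults. Raw counts for each annotated feature were deposited by the authors. The submitters' processing notes name Bowtie, TopHat 1.3.0, HTSeq, DESeq, edgeR and the build mm9 (NCBIM37), with no roles given. Counting mode and strand setting were not given in the sources used here. Features without exonic bases of their own held no count and were not measured, and a share of own bases under 50% is named beside the value.

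All results were computed from these counts, without the Total line, in R 4.3.3 with edgeR 4.0.16 (filterByExpr with minimum count 10 and minimum total 15, TMM, robust quasi-likelihood test, contrast of E13.5 to the mean of both ages, Benjamini-Hochberg adjusted p under 0.05 over 12766 features). Each standard error is |log2 fold change| divided by the root of the F statistic. Limma 3.58.1 (voom) and DESeq2 1.42.0 were alternatives. A gene with no adult count was given a lower bound, set at 3 counts summed over the adults, and those with 1 to 3 counts have a ratio with a 95% Poisson interval, which covers counting error only. At adult depths of 2092270 to 2682955 counts, 1 count is a large share of the level of a weak gene. Plots used Python 3.11.15 and matplotlib 3.10.9.

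The comparison, its 41 lists of 1038 genes and its 30 pairs were chosen with earlier results of these data known. Pairs with a form below 10% own bases were dropped. Where the first form had a median of 3 adult counts or fewer, the adult ratio is that of summed counts, a choice made after seeing the data. Named genes were the 10 coding genes with the largest difference in mean CPM in each direction and groups apart, up to 2 called members per list in its main direction and 1 in the other (mean CPM of at least 5), both genes of each pair, 6 genes nearest to 0, 3 NONCODE features in each direction, and Nppa, Nppb, Acta1 and Postn. Some genes that this rule names are not reported here. Named outside this rule, after their values were seen, were Adrb1, Agrn, B2m, Bcat1, Bcat2, Cacna1c, Cacna1d, Cacna1h, Cdkn1b, Cdkn1c, Chrm2, Erbb2, Esrra, Etv4, Fbn2, Gata4, Gata5, Hif1a, Igf1r, Insr, Lamb2, Lpl, Mcm5, Nkx2-5, Notch1, Phgdh, Ppara, Pprc1, Psat1, Ryr2, Slit2, Smarca2, Smarcc1, Tead2, Tfam, Thra, Vcan, Wnt4 and Wnt5a. Same-numbered libraries of different groups had correlations of -0.13 to 0.12 in their deviations from group means. This gave no sign of pairing but cannot exclude it, and the numbers are not known to pair the samples. On simulated counts of 12766 features, edgeR found 73.1% of 1.5-fold, 86.6% of 2-fold and 100% of 4-fold changes, and 5.46% of calls were false; the simulation left most features unchanged, unlike these data.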

Additional observations from a re-analysis of the deposited data

Results flagged for a closer look

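For named genes, 59 of 681 groups of libraries held a highest or lowest value far from the rest by Dixon's test, and chance flags about 1 in 20 groups. Values are CPM with the range of the other libraries of the group in parentheses. In 6-week replicate 2 the values far from the rest were those of Igf2 at 62.6 (33.2 to 39.6), Wif1 at 56.5 (0.454 to 9.41), Tnxb at 471 (339.7 to 386), Prelp at 292 (157 to 203), Fmod at 53.9 (0 to 1.49) and C4b at 22.6 (3.9 to 8.17). Further genes there were Ucp3 at 137 (52.5 to 79.4), Phkg1 at 83.9 (32.5 to 45.4), Myl7 at 25.6 (0 to 0.502), Myl4 at 21.7 (0.495 to 3.01), Gata5 at 1.74 (0 to 0.561) and Wnt5a at 46.5 (15.4 to 24.1). A further gene there was Slit2 at 14.3 (5.45 to 8.24). This library also had raised adipocyte markers. E13.5 replicate 4 stood apart with Hbb-y at 33446 (8102 to 14232), Hba-x at 9273 (2728 to 5026), Sqle at 40.6 (28.4 to 33.5), Nop58 at 52.6 (39.1 to 44.6), Cbx7 at 11.8 (3.95 to 6.64) and Wif1 at 4.78 (1.95 to 2.61). Further genes there were Hmox1 at 185 (58.5 to 98.3), Ftl1 at 817 (466 to 556), Tuba4a at 53 (28.9 to 33.6) and Trib3 at 32 (8.35 to 15.9). This library also had the highest red-cell markers of the embryos. The library E13.5 replicate 2 stood apart for n265358 at 17769 (4202 to 7187), n265835 at 1379.6 (354 to 608), n177784 at 849.9 (564 to 639.5), Cdkn1c at 819 (478 to 593), Tead2 at 303 (240.2 to 258) and Adrb1 at 7.61 (3.58 to 5.22). A further gene there was Tfam at 14.1 (11.3 to 12.4). Of these, n265358, n265835 and n177784 are NONCODE features. In 6-week replicate 3 the values far from the rest were those of Fn1 at 116 (169 to 190.4), Col18a1 at 17.8 (36.9 to 47.2), Sesn1 at 195 (116 to 137), Pik3r1 at 463 (219.9 to 279.8) and Gata4 at 279.9 (325 to 349.9). 16-week replicate 2 stood apart with Ptbp1 at 46.6 (59.1 to 65.6), Pink1 at 1188 (1337 to 1391) and Tead2 at 3.18 (9.4 to 11.9). The library 16-week replicate 5 stood apart for Grb10 at 218 (175 to 187), mt-Nd6 at 3258 (278 to 772) and n270541 at 176 (218 to 239.9). In 16-week replicate 6 the values far from the rest were those of Podn at 63.9 (38.4 to 43.7), Tuba1a at 28.3 (15.3 to 18.8) and Cacna1h at 3.65 (6.51 to 8.04). 6-week replicate 1 stood apart with Myl2 at 12878 (8857 to 10129), Ccnb2 at 3.04 (0 to 0.991) and B2m at 203 (71.8 to 104). The library E13.5 replicate 1 stood apart for Nr2f1 at 10.2 (19 to 24.2), Hey2 at 106 (80 to 89.5) and Pgam1 at 14.3 (7.79 to 9.65). In 6-week replicate 4 the values far from the rest were those of Alas1 at 637 (420.5 to 482) and Etv4 at 2.01 (0.434 to 0.991). E13.5 replicate 3 stood apart with Ephb2 at 102 (26.6 to 49.2) and Smarca2 at 118 (71.6 to 90.5). The library 16-week replicate 1 stood apart for Fgf1 at 355 (282 to 308). In 16-week replicate 3 the values far from the rest were those of Fgfr2 at 2.21 (0 to 0.529). 16-week replicate 4 stood apart with Acta1 at 652 (58.6 to 250.4). The library 6-week replicate 5 stood apart for Rrm2 at 1.82 (0.434 to 0.561). In 6-week replicate 6 the values far from the rest were those of Egln3 at 283 (84.2 to 128). No difference between these libraries was tested further, and none of the values was left out of the groups.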

How the results depend on the processing

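The counts of 5630 higher and 5065 lower features stayed within 1.5 times their size under all but 2 alternatives. With all 27 libraries in 1 fit 9169 features were higher (22180 tested), and without a filter on low counts 12197 were higher (40024 tested). Leaving out each library in turn gave 5457 to 5766 higher and 4941 to 5118 lower. Without the 3 libraries with raised markers of other cells, an alternative chosen after seeing the data, the counts were 5515 and 4843, and without the 4 adults lacking Y-linked counts, chosen likewise, 5707 and 5064. With the replicate number as a block they were 5534 and 4947; the numbers are not known to pair the samples. None of the 39 lists with more calls in one direction took the other majority under any alternative run; of the 2 evenly split lists, the Notch list had 5 higher and 10 lower against sham-operated hearts.

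Of 10681 calls tested again with sham-operated hearts as the reference, 9393 passed with the same sign and 154 with the other. Among named genes, their log2 fold changes against sham were -0.34 for Tomm20, 0.38 for Wif1, -0.27 for Il1r1, -0.17 for Pdcd6ip, -0.76 for Acta1, 0.46 for Nkx2-5 and -0.11 for Notch1; the cause was not tested. Insig1 was at 0.11 against the 6-week adults alone. Upper-quartile scaling shifted the median of all features by 0.12 and gave 0.12 for both Mll1 and Nucb1. Without a filter the shift was 0.18, with Mll1 at 0.18, Nucb1 at 0.17 and Sec16a at 0.17. Leaving out 1 library moved the log2 fold change of Bub1 from 8.34 to 9.52 (6-week replicate 6), of Nuf2 from 8.32 to 9.49 (6-week replicate 1), of Lama1 from 6.81 to 7.99 (16-week replicate 1) or 8.38 (6-week replicate 4), of Col2a1 from 10.33 to 11.52 (16-week replicate 2), of Myl7 from 9.65 to 12.32 (6-week replicate 2) or 10.42 (16-week replicate 5) and of Myl4 from 8.08 to 8.89 (6-week replicate 2). Adult depth limits genes with few counts: for Bub1, Nuf2, Lama1 and Col2a1 the adult level rests on 1 to 3 counts.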
